A study of Mus musculus with 51 samples.

Results

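The 48 genes described here encode ribosome biogenesis factors, the proteins that process and assemble ribosomal RNA in the nucleolus. They were taken from the RNA tables by gene name, 48 of the 37525 genes listed in the 5 tables, and from the chromatin tables by peaks lying within 2 kb of their starts. All samples were mouse, strain C57BL/6. RNA came from LoNA KO and control 2-cell embryos at 18h, 20h, 22h and 24h and from LoNA KD and control 2C-like mESC, a mouse embryonic stem cell population whose label likens it to the 2-cell stage. Chromatin of 24h embryos was profiled for H3K27me3, H3K4me3 and acetylated nucleophosmin (AcNPM1) in KO and control embryos, and for AcNPM1 in KO embryos given a p300 inhibitor. LoNA is a long noncoding RNA of the nucleolus. The labels give no design of the KO allele or of the knockdown, and do not say how many embryos entered a sample or what the hours are counted from.

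Ribosomes begin as one long precursor RNA in the nucleolus. Small nucleolar ribonucleoproteins (snoRNPs) modify it, the t-UTP and U3 complexes of the small-subunit processome fold and cut it, and a separate set of factors carries the large subunit from the nucleolus towards the cytoplasm. In the mouse the 2-cell embryo still holds nucleolar precursor bodies and is only starting to make its own ribosomes. The 48 genes were divided by role into 7 snoRNP proteins, 5 t-UTP proteins, 16 proteins of the U3 and Mpp10 complexes with their helicases and enzymes, 3 late small-subunit factors, 3 members of the PeBoW complex of the large subunit, and 14 other large-subunit factors.

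Each embryo group had 3 libraries at 18h, 20h and 22h, and each mESC group had 2. At 24h each group had 4 columns that paired at a correlation above 0.99, and each pair was summed, which left 2 libraries. The mESC columns of a group also correlated above 0.99 but were not summed. Total counts were between 12077497 and 18286944 outside 24h, with 17125 to 23957 genes detected, and between 13066794 and 16922914 at 24h, with only 7877 to 10167 genes detected. The mitochondrial share of counts was 12.9% to 19.3% in the 24h table and 1.48% to 9.84% in the others. The 24h libraries therefore stood apart and are described separately. Nothing in the labels says whether libraries came from separate collections, so every p-value measures only the spread between these libraries. The tables name no gene LoNA; the transcript Gm17382, singled out after its values were seen, had at most 3 counts in the KO embryo libraries of 18h to 22h against at least 507 in the controls. Markers of the 2-cell embryo summed to 308.0 to 1412 CPM (counts scaled to the library total) in KO embryos and 243.0 to 1132 CPM in control embryos at 18h to 22h, and to 4.43 to 4.77 CPM in KD mESC and 9.70 to 10.4 CPM in control mESC, so these markers were low in the mESC. Maternal oocyte markers summed to 6538 to 12442 CPM in KO and 6283 to 12506 CPM in control embryos at those times. At 18h to 22h, no list of cumulus, sperm, blood or fibroblast markers summed above 76.1 CPM in KO or 99.7 CPM in control embryos. Markers of chromaffin cells and sympathetic neurons reached more at those times, at 51.0 to 130.2 CPM in KO and 56.3 to 170.5 CPM in control embryos. In the 24h libraries blood markers summed to 1.27 to 195.1 CPM in KO and 21.2 to 42.5 CPM in control embryos.

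The first comparison asked whether loss of LoNA altered these genes in the embryo. No member passed an adjusted p of 0.05 at 18h, 20h or 22h in edgeR's quasi-likelihood test, out of 48, 47 and 48 members tested. Over all genes the test called 0.00649% at 18h, 0.0138% at 20h (0.00689% higher and 0.00689% lower) and 0.00656% at 22h, so few genes of any kind were called. At an unadjusted p under 0.05 there were 1, 2 and 1 members, against 793 of 15416, 532 of 14524 and 481 of 15251 genes. DESeq2 also called 0 members at each of these times, while it called 0.415%, 0.151% and 0.0328% of all genes. A member's log2 change carried a median standard error of 0.44 in the 18h table, 0.47 in the 20h table and 0.31 in the 22h table. In whole-embryo RNA, fewer cells that express a gene and less of its RNA per cell cannot be told apart.

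Over the members, the log2 change of KO over control had a median of 0.18 at 18h, 0.003 at 20h and -0.01 at 22h, beside -0.02, -0.03 and -0.002 over all genes. Without 1 library the 18h median lay between 0.056 and 0.173, at 0.056 without either library 1 or library 3 of KO. The 20h median lay between -0.031 and 0.105 and the 22h median between -0.160 and 0.045, so both took either sign. At 18h 32 of 48 members lay above 0, which is 66.7% against 48.8% of all genes. At 20h the count was 24 of 47 and at 22h 23 of 48. Groups did not overlap, with KO higher, for 4 members at 18h, where the share over all genes was 5.79%. They did not overlap, with KO higher, for 3 at 20h and 3 at 22h (4.65% and 4.73% of all genes). KO lay wholly below control for 0, 2 and 1 members, where all genes gave 7.04%, 5.22% and 4.5%. The members' summed level was 2874 ± 238 CPM in KO and 2489 ± 338 CPM in control embryos at 18h. At 22h it was 3984 ± 460 CPM in KO and 4161 ± 740 CPM in control embryos (SD, n = 3 each). Brix1 held much of these sums. Without it the 18h sum was 2061 ± 61.2 CPM in KO, with a lowest value of 2019 CPM, and 1850 ± 110.2 CPM in control embryos, with a highest of 1934 CPM, so that the groups did not overlap. With Brix1 the 18h sums overlapped, at 2665 to 3133 CPM in KO and 2208 to 2863.5 CPM in control embryos. At 20h the sums overlapped without Brix1 too, at 2054 to 3015 CPM in KO and 1983 to 2766 CPM in control embryos. The 22h sum without Brix1 was 3109 ± 346 CPM in KO and 3109 ± 288 CPM in control embryos.

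**Figure D1:**
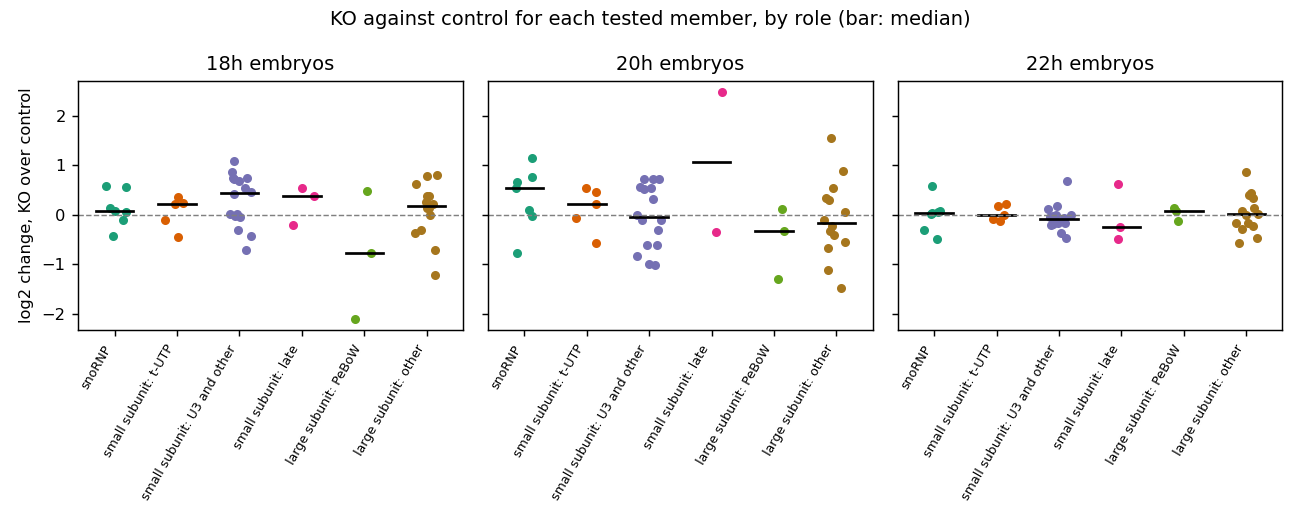
Log2 change (KO over control, vertical axis) of every tested member at 18h, 20h and 22h, with members grouped by role along the horizontal axis, 1 point per member and a bar at each role's median. At 18h role medians lie between -0.78 and 0.44, those of 20h between -0.32 and 1.07 and those of 22h between -0.25 and 0.08, and single members span the narrowest range at 22h, from -0.57 to 0.87.

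Among snoRNP proteins, Nop58 of the box C/D core, which guides 2′-O-methylation, had the smallest p at 22h. It measured 95.5, 118 and 102 CPM in KO libraries against 75.9, 65.1 and 66.4 CPM in controls. Every KO value was above every control value at 22h (log2 change 0.59 ± 0.22, unadjusted p = 0.0219, adjusted p = 1 in edgeR), which held at neither earlier time. Nhp2, a protein of the box H/ACA particles that guide pseudouridylation, measured 20.2, 17.7 and 13.4 CPM in KO and 25.5, 24.98 and 21.3 CPM in control libraries at 22h. Its KO values were all lower at 22h (log2 change -0.49 ± 0.30, adjusted p = 1 in edgeR). Nolc1, a chaperone of snoRNPs, measured 56.5, 123 and 89.5 CPM in KO and 61.4, 37.2 and 55.1 CPM in control libraries at 20h, with overlap (log2 change 0.76 ± 0.37, adjusted p = 0.998 in edgeR). Dkc1, the pseudouridine synthase, measured 407, 414 and 303 CPM in KO and 423, 301 and 368 CPM in control libraries at 22h. These ranges overlapped.

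In the small-subunit processome, Mphosph10, a core protein of the U3 complex, stood out at 18h. It measured 242, 324 and 283 CPM in KO against 177, 157 and 190 CPM in control libraries. The groups did not overlap at 18h (log2 change 0.73 ± 0.26, unadjusted p = 0.0194, adjusted p = 0.853 in edgeR), but at 20h and 22h they did. Fcf1, the counterpart of a yeast nuclease that cuts the precursor RNA, measured 71.4, 129 and 48.8 CPM in KO and 45.6, 39.2 and 55.9 CPM in control libraries at 18h. One KO value lay within the control range. Ddx21, a helicase of ribosomal RNA transcription and processing, measured 28.6, 37.5 and 21.1 CPM in KO and 12.0, 6.50 and 23.3 CPM in control libraries at 18h, with overlap (log2 change 1.09 ± 0.51, adjusted p = 0.969 in edgeR, and 1.69 without library 3 of the controls).

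Utp20, a large scaffold of the processome, was the single member that did not overlap in the same direction at more than 1 of the 3 times. How many of all genes did so was not counted, so this is no sign that Utp20 stands out. At 20h Utp20 measured 27.8, 33.8 and 31.9 CPM in KO and 26.5, 10.9 and 24.8 CPM in control libraries. At 22h it measured 33.1, 19.6 and 23.3 CPM in KO and 17.1, 13.3 and 16.6 CPM in control libraries. KO was higher at both, by a log2 change of 0.54 ± 0.44 and 0.69 ± 0.32 (adjusted p = 0.998 and 1 in edgeR). Without library 2 of the 20h controls the change at 20h was 0.24, and without library 1 of the 22h KO embryos that at 22h was 0.45. At 18h the groups overlapped, with means of 28.3 ± 9.12 CPM in KO and 29.7 ± 7.34 CPM in control libraries. Wdr43, a t-UTP protein, measured 129, 132 and 112 CPM in KO and 69.6, 98.7 and 92.6 CPM in control libraries at 20h, without overlap (log2 change 0.46 ± 0.30, adjusted p = 0.998 in edgeR). Nob1, the nuclease that makes the mature end of 18S RNA, stayed between 3.55 and 20.0 CPM in KO libraries and between 4.44 and 16.1 CPM in control libraries over the 3 times.

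For the large subunit, Wdr12 of the PeBoW complex had the smallest p at 20h. It measured 11.1, 10.2 and 10.7 CPM in KO against 25.4, 17.4 and 32.7 CPM in control libraries. Every KO value was lower (log2 change -1.28 ± 0.46, unadjusted p = 0.0179, adjusted p = 0.998 in edgeR). Nip7, which acts in precursor processing for the large subunit, measured 120, 62.8 and 90.8 CPM in KO and 138, 307 and 126 CPM in control libraries at 20h. KO was again wholly lower (log2 change -1.12 ± 0.42, adjusted p = 0.998 in edgeR). The control library at 307 CPM carried much of this, as the change was -0.57 without it. In contrast, at 22h KO lay wholly above control at 75.7, 79.8 and 70.1 CPM against 54.1, 69.4 and 53.4 CPM. Pes1, another protein of PeBoW, overlapped at all 3 times and averaged 44.1 ± 12.1 CPM in KO and 41.5 ± 8.05 CPM in control libraries at 22h. Brix1, an assembly factor of the large subunit, measured 634 to 1058 CPM in KO and 523 to 1455 CPM in control libraries at 22h. Counts were not scaled by transcript length, so a CPM does not compare the RNA of different genes.

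A test of the difference in KO effect between 22h and 18h, in a joint fit of all 18 embryo libraries of 18h to 22h, called 0 of 48 members and 0% of 18992 genes. At an unadjusted p under 0.05 it gave 1 member, Fcf1 (log2 difference -1.27 ± 0.50, adjusted p = 0.87 in edgeR), and 1041 genes. DESeq2 called 0 members and 0.221% of genes for this difference.

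At 24h the data were sparse. The table listed 39 of the 48 members, without Rrp9, Noc2l, Tsr1, Rrp1b, Heatr1, Nat10, Nop16, Ddx27 and Bop1, and 23 passed the filter on low counts. Between 14 and 26 members had more than 10 counts in any 24h library, against 42 to 48 in the libraries of the other tables, and 6 members had more than 10 in all 4 libraries. None of the 23 members and 0% of 7425 genes passed the edgeR test, with 1 member and 383 genes below 0.05 before adjustment. With DESeq2 0 members and 5.54% of genes were called. Among the 6 members present throughout, Fcf1 measured 93.4 and 204 CPM in KO against 54.3 and 40.3 CPM in control libraries, without overlap (log2 change 1.65 ± 1.24, adjusted p = 1 in edgeR, and 1.06 without library 2 of KO). Groups were separate for 2 members with KO higher and 4 with KO lower, where 16% and 17.3% of all genes were, or 33.3% together, with 2 libraries a group. Utp20 had 0 counts in both KO libraries and 96 and 30 counts in the controls, and Nop58 had 2 and 0 counts in KO and 81 and 275 counts in control libraries. Both had KO values above control at 22h. When the columns of 24h were entered as separate libraries, Utp20 and Nop58 passed (adjusted p = 0.0136 and 0.0253 in edgeR), but paired columns correlated above 0.99.

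The second comparison followed the members over time. In control embryos 6 members rose between 18h and 22h and none fell, which is 12.5% of the 48 members. The joint fit called 1.58% of all 18992 genes, 1.03% as higher and 0.553% as lower. The 6 were Utp4, Bms1, Gnl2, Gnl3, Lyar and Rrp1b. The members' median log2 change was 0.57, with 39 of 48 above 0, beside a median of -0.08 and 46.6% of genes above 0 over all genes. Under DESeq2's size factors the median was 0.49, with 35 of 48 above 0, and the all-gene median was -0.14. DESeq2 called 7 members higher and 1 lower, beside 5.15% of all genes. Groups did not overlap for 22 members with 22h higher and 5 with 22h lower, against 11.1% and 12.3% of all genes. Each time was deposited as a table of its own, so time and table cannot be told apart.

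These calls rested on few libraries. Leaving out library 3 of the 18h controls or library 1 of the 22h controls left 0 members called. Leaving out each other control library of the 2 times left between 1 and 4. The all-gene count moved with it and was 0 of 20014 genes without the first of these, and 38 higher and 11 lower of 20141 without the second. Two-cell markers also moved with time: their sum was 252.4 ± 16.03 CPM at 22h and 791.1 ± 314.5 CPM at 18h in control embryos (SD, n = 3 each). Mitochondrial transcripts took 1.62% to 2.99% of counts in control libraries at 22h and 2.86% to 5.71% in those at 18h. Their part in the members' change was not tested.

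Utp4, a t-UTP protein that binds the start of the precursor RNA, measured 75.9, 63.7 and 25.3 CPM at 18h, 71.7, 63.0 and 145 CPM at 20h and 269, 199 and 185 CPM at 22h in control libraries. The 22h values were all above those of 18h and 20h (log2 change from 18h to 22h 1.98 ± 0.39, adjusted p = 0.0143 in edgeR). Bms1, a GTPase of the U3 complex, measured 111, 54.7 and 53.1 CPM at 18h and 232, 195 and 271 CPM at 22h in control libraries. Its 22h values exceeded every 18h value (log2 change 1.67 ± 0.36, adjusted p = 0.0194 in edgeR).

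The other 4 act on the large subunit or in the nucleolus more widely. Gnl2, a GTPase that in yeast is needed for export of the large subunit, averaged 58.6 ± 14.9 CPM at 22h and 14.1 ± 1.26 CPM at 18h (log2 change 2.06 ± 0.47, adjusted p = 0.0309 in edgeR). Its relative Gnl3, known as nucleostemin, averaged 90.7 ± 16.3 CPM at 22h and 31.2 ± 9.38 CPM at 18h (log2 change 1.54 ± 0.37, adjusted p = 0.0346 in edgeR). Rrp1b, a nucleolar protein of large-subunit assembly, averaged 132.4 ± 37.6 CPM at 22h and 36.9 ± 16.2 CPM at 18h (log2 change 1.84 ± 0.42, adjusted p = 0.0302 in edgeR). Lyar, a nucleolar zinc-finger protein linked to cell growth, averaged 67.1 ± 19.6 CPM at 22h and 19.8 ± 2.25 CPM at 18h (log2 change 1.76 ± 0.37, adjusted p = 0.0193 in edgeR; SD, n = 3 each throughout). None of these 4 genes overlapped between the 2 times in control embryos.

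**Figure D2:**
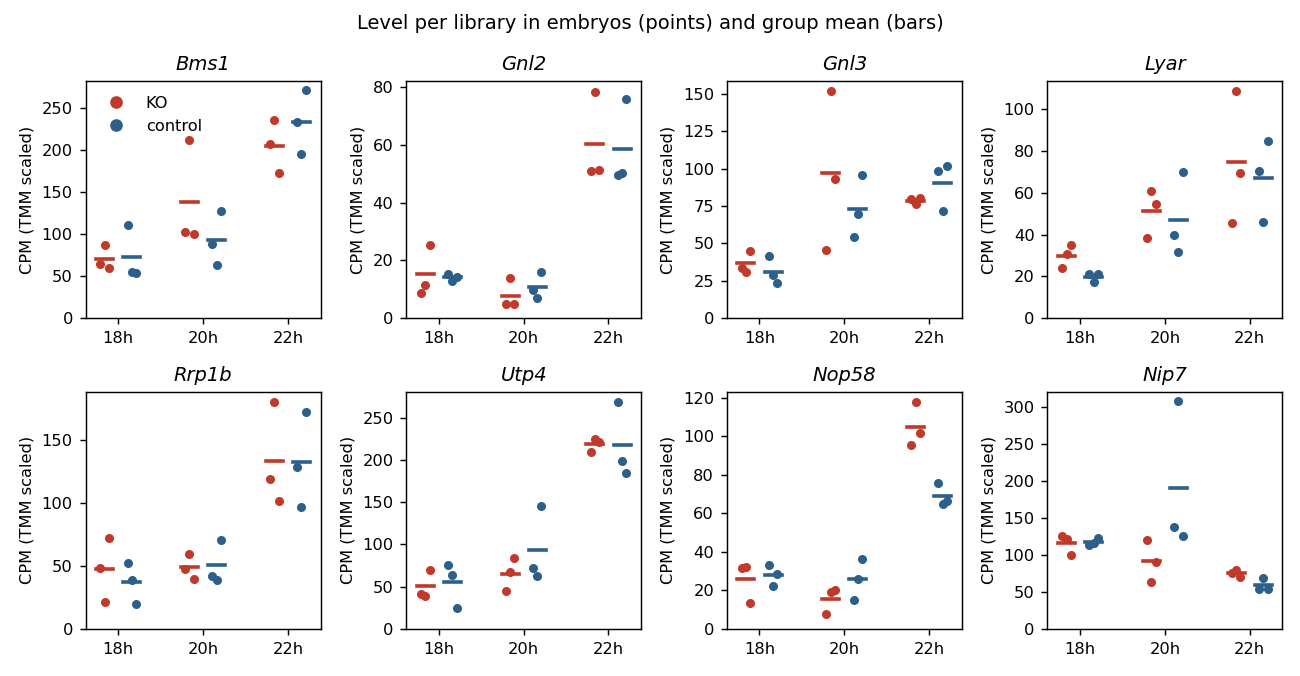
TMM-scaled CPM (vertical axis, from 0) of 8 members in every embryo library at 18h, 20h and 22h (horizontal axis), KO in red left of control in blue, with bars at group means (n = 3 each). Bms1, Gnl2, Gnl3, Lyar, Rrp1b and Utp4 lie higher at 22h than at 18h in both genotypes, Nop58 at 22h is higher in KO (95.5 to 118 CPM) than in control (65.1 to 75.9 CPM), and Nip7 is lowest at 22h.

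The steps within this interval were tested as well. Between 18h and 20h, 1 member rose and 0 fell in control embryos, where 0.753% of all genes were called, 0.521% as higher and 0.232% as lower (DESeq2 called 3 members higher and 2 lower, and 5.31% of genes). It was Fcf1, at 45.6, 39.2 and 55.9 CPM at 18h and 219, 124 and 123 CPM at 20h, a rise at 20h with no overlap (log2 change 1.73 ± 0.36, adjusted p = 0.0361 in edgeR). By 22h it measured 96.2, 47.1 and 77.7 CPM. The Fcf1 call was lost when any 1 of 5 of the 6 control libraries of 18h and 20h was left out, the exception being library 2 of 20h. Between 20h and 22h, 4 members rose and 1 fell, where 2.94% of all genes were called, 1.55% as higher and 1.39% as lower (DESeq2 called 8 members higher and 4 lower, and 7.95% of genes). The risers were Gnl2, Bms1, Utp15 of the t-UTP complex and the helicase Ddx52. Utp15 measured 60.97, 37.4 and 45.3 CPM at 18h, 17.7, 22.8 and 20.9 CPM at 20h and 76.8, 70.3 and 64.1 CPM at 22h, so its 20h values were below those of both other times (22h over 20h 1.78 ± 0.34 on the log2 scale, adjusted p = 0.0113 in edgeR). Ddx52 had the same shape, averaging 39.3 ± 6.14 CPM at 18h, 15.7 ± 3.93 CPM at 20h and 51.8 ± 4.92 CPM at 22h.

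Nip7 was the member that fell, with 138, 307 and 126 CPM at 20h and 54.1, 69.4 and 53.4 CPM at 22h. Every 22h value was lower (log2 change -1.69 ± 0.32, adjusted p = 0.0113 in edgeR). The count of members higher at 22h than at 20h was 0 without library 1 of the 20h controls or library 1 of the 22h controls, 7 without library 3 of 20h, and 2 without any 1 of the other 3. Over all genes there were 24 higher and 25 lower without library 1 of 20h, 28 and 8 without library 1 of 22h, 242 and 265 without library 3 of 20h, and between 71 and 181 higher in the other 3 fits, against 294 and 264 with every library. Nip7 was not called without library 1 of the 22h controls, and 2 members were lower without library 3 of the 22h controls.

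KO embryos were compared over the same interval with libraries of their own. In them 7 members rose from 18h to 22h and 0 fell, where the fit called 4.13% of all genes, 2.5% as higher and 1.63% as lower. DESeq2 called 10 members higher and 1 lower, and 9.21% of genes. Utp4, Bms1, Gnl2, Lyar and Rrp1b were called in both genotypes, which is 5 of the 7 in KO and 5 of the 6 in control embryos. Nop58 passed in KO embryos, averaging 105.0 ± 11.5 CPM at 22h and 25.7 ± 10.5 CPM at 18h (log2 change 2.03 ± 0.40, adjusted p = 0.00767 in edgeR). Imp4, which pairs the U3 RNA with the precursor, also passed in KO embryos, at 112.8 ± 3.27 CPM at 22h and 40.4 ± 11.2 CPM at 18h (log2 change 1.48 ± 0.32, adjusted p = 0.0107 in edgeR). In controls the log2 changes of Nop58 and Imp4 were 1.30 and 0.77 (adjusted p = 0.109 and 0.265 in edgeR), and the differences between genotypes were not called. Leaving out 1 KO library left between 2 and 6 members higher: 3 without library 1 and 2 without library 2 of 18h, and 3 without library 2 of 22h. The all-gene counts in those 3 fits were 364 higher and 224 lower, 118 and 108, and 246 and 144, against 475 and 309 with every library. Without library 3 of 18h, 1 member was lower, namely Imp3, the partner of Imp4. Utp4 and Nop58 were called in all 6 of these fits.

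**Figure D3:**
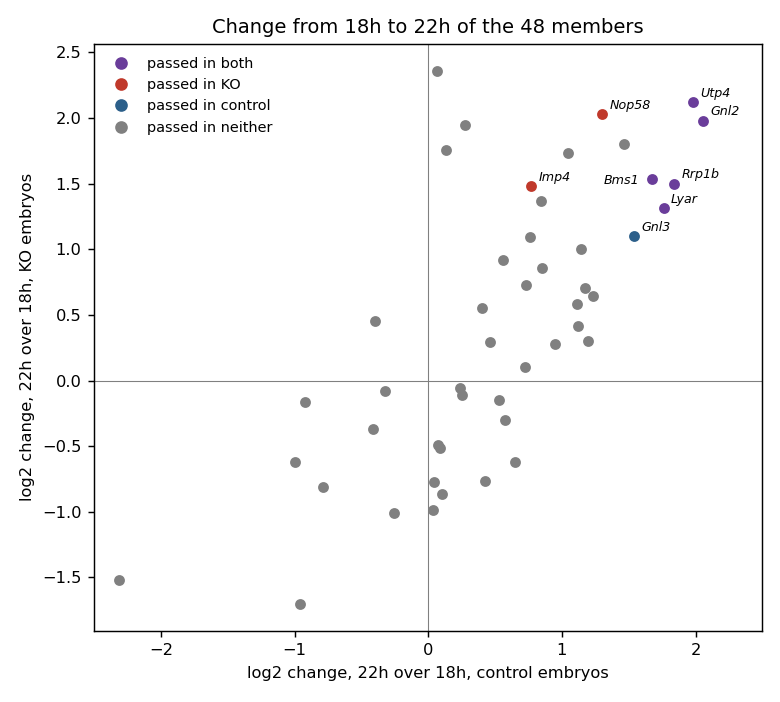
Log2 change from 18h to 22h in KO embryos (vertical axis) against that in control embryos (horizontal axis), 1 point for each of the 48 members, coloured by whether adjusted p was at or under 0.05. Members called in both genotypes lie at the upper right, and 28 members lie above 0 in both.

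Across the 48 members the 2 courses correlated at a Pearson r of 0.70 and a Spearman rho of 0.70, with the same sign in 75% of them. Over all 18992 genes the values were 0.23, 0.37 and 66.1%. Those genes include weakly counted ones and were not matched to the members in level, so the contrast is not particular to the members' function. The genotypes share no library here but share the tables of each time, so a difference between tables enters both. Members' levels in these libraries are also not independent of each other.

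Other genes of the same pathway were examined from a list of 67 in the tables that holds none of the 48, of which 66 were tested over time. In control embryos 5 rose from 18h to 22h and 0 fell, which is 7.58% against 1.58% of all genes, with a median log2 change of 0.70. They were Ddx18, Nifk, Nsa2, Ddx24 and Rrp8. Nifk, a nucleolar protein that binds Mki67, averaged 165.3 ± 17.4 CPM at 22h and 49.0 ± 9.38 CPM at 18h in control embryos (log2 change 1.76 ± 0.33, adjusted p = 0.0112 in edgeR). In KO embryos 6 rose and 0 fell, which is 9.09% against 4.13% of all genes, and Nifk was among them. Nmd3, the adaptor that exports the large subunit, averaged 298.5 ± 53.0 CPM at 22h and 71.6 ± 57.3 CPM at 18h in KO embryos (log2 change 2.06 ± 0.56, adjusted p = 0.0402 in edgeR). Between KO and control embryos none of this list was called at 18h, 20h, 22h or 24h.

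Promoter sequences are printed for the 4 genes that rose in both genotypes and have an entry, for Nip7, which fell late, and for Heatr1, which carried an AcNPM1 peak. Each runs 5′ to 3′ on the gene's strand from 250 bases before the RefSeq start to 50 after it (RefSeq, GRCm38.p6), with matches to either of 2 motifs on either strand in capitals. The motifs are CACGTG, the E-box bound by Myc-family factors, and CCGGAAG or its reverse CTTCCGG, a core bound by ETS-family factors. The regions are chr8:106893390-106893689 on the plus strand for Utp4, chr6:118419368-118419667 on the minus strand for Bms1, chr5:38220232-38220531 on the plus strand for Lyar, chr17:32035912-32036211 on the plus strand for Rrp1b, chr8:107056627-107056926 on the plus strand for Nip7 and chr13:12395125-12395424 on the plus strand for Heatr1.
Utp4: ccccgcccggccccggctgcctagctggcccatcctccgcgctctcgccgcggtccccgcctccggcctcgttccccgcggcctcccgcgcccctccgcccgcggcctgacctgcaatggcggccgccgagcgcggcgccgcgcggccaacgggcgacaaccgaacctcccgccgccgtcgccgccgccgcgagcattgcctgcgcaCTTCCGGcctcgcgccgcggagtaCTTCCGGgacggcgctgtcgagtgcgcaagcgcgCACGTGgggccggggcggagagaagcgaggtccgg
Bms1: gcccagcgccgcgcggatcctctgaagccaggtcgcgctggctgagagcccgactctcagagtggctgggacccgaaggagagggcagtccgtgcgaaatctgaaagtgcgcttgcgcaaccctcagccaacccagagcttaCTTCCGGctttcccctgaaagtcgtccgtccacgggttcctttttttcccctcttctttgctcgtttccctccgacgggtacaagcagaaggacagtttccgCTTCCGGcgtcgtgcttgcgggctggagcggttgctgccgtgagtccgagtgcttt
Lyar: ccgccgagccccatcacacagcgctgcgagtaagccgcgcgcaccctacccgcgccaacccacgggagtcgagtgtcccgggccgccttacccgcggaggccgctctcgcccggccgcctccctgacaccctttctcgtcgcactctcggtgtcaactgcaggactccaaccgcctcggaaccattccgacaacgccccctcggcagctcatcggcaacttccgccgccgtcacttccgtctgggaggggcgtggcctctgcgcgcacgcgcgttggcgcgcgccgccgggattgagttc
Rrp1b: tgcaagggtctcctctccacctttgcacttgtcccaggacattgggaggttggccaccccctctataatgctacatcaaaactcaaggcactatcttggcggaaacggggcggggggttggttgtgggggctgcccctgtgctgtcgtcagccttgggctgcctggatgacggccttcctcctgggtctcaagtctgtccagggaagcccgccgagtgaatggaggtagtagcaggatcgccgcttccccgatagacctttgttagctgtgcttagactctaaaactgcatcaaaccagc
Nip7: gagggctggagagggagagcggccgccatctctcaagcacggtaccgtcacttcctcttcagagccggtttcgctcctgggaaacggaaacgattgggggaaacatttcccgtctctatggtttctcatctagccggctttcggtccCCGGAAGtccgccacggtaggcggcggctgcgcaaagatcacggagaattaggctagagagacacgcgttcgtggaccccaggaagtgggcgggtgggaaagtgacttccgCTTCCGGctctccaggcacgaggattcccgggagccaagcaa
Heatr1: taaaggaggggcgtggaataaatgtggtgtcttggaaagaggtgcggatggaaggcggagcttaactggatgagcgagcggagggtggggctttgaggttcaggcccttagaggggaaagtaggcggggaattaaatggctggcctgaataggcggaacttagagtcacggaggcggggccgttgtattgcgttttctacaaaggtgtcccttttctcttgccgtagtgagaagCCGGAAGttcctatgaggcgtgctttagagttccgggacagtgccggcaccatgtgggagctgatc

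Utp4 holds 1 E-box and 2 ETS cores, Bms1 and Nip7 hold 2 ETS cores each, Heatr1 holds 1, and in Lyar and Rrp1b neither motif's letters occur in this window. RefSeq promoters were matched by symbol for 43 of the 48 members. Rrs1, Gnl2, Rrp12, Fcf1 and Bop1 had no entry. The E-box occurs in 7 of the 43, which is 16.3%, against 8.91% of 17492 protein-coding genes. The ETS core occurs in 19, which is 44.2%, against 12.9%. The palindromic core motif of NRF1 occurs in 0 of the 43 and in 1.47% of coding genes. Median GC content was 58.3% for the members and 56.3% for coding promoters. A match here is a run of letters, not a binding site.

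Many of these promoters are shared with a neighbour. Another gene starts within 2 kb for 22 members, which is 45.8%, against 23.3% of coding genes. A coding gene starts in the opposite direction within 1 kb for 14 members, which is 29.2%, against 7.41%. Utp4 lies 35 bases from Chtf8, Lyar 13 bases from Zbtb49, Nip7 188 bases from Cog8 and Imp4 179 bases from Ccdc115, all divergent. A peak at such a start can belong to either gene.

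The third set of comparisons asked where H3K4me3, H3K27me3 and AcNPM1 lay at these promoters in 24h embryos. H3K4me3 marks active promoters and H3K27me3 is laid down by the repressive complex PRC2, while nucleophosmin is a nucleolar protein that p300 can acetylate. Each condition had 1 column of reads per peak, so no test was possible, and intervals given here are 95% exact intervals that cover counting error only. Peaks were called by the authors, and coordinates are mm10.

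Nearly all members carried H3K4me3. A peak lay within 2 kb of the start for 47 of 48 members, against 72.5% of coding genes. Gnl2 was the exception, with the nearest listed peak 8638 bases from its start in the RNA tables. Gnl2 had no RefSeq promoter entry, so that start was not checked. The log2 ratio of RPM (reads scaled to the total reads of the condition), KO over control, ranged from -0.41 to 0.14 with a median of -0.12, and 37 members lay below 0. The median over coding genes with a peak was -0.13 with 78.1% below 0. With the median ratio over all peaks set to no change, the members' median was 0.01, with 23 members below 0 and 24 above, beside 50.1% of coding genes below 0. None of the 47 was past 2-fold, against 0.0345% of coding promoters with a peak.

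The lowest ratios belonged to Imp4, Nop14 and Ddx10. Imp4 had 24.1 RPM in KO and 32.0 RPM in control embryos (log2 ratio -0.41, interval -0.51 to -0.31). Nop14, which joins the head of the small subunit in yeast, had 22.4 RPM in KO and 28.9 RPM in control embryos. Ddx10, a helicase of the processome, had 12.9 RPM in KO and 16.4 RPM in control embryos. The highest belonged to Wdr75, Nip7 and Noc2l. Wdr75, a t-UTP protein, had 13.4 RPM in KO and 12.2 RPM in control embryos (log2 ratio 0.14, interval -0.01 to 0.29). Nip7 had 40.9 RPM in KO and 37.3 RPM in control embryos (log2 ratio 0.13, interval 0.05 to 0.22), and Noc2l, a nucleolar factor of the large subunit, had 24.8 RPM in KO and 23.7 RPM in control embryos.

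**Figure D4:**
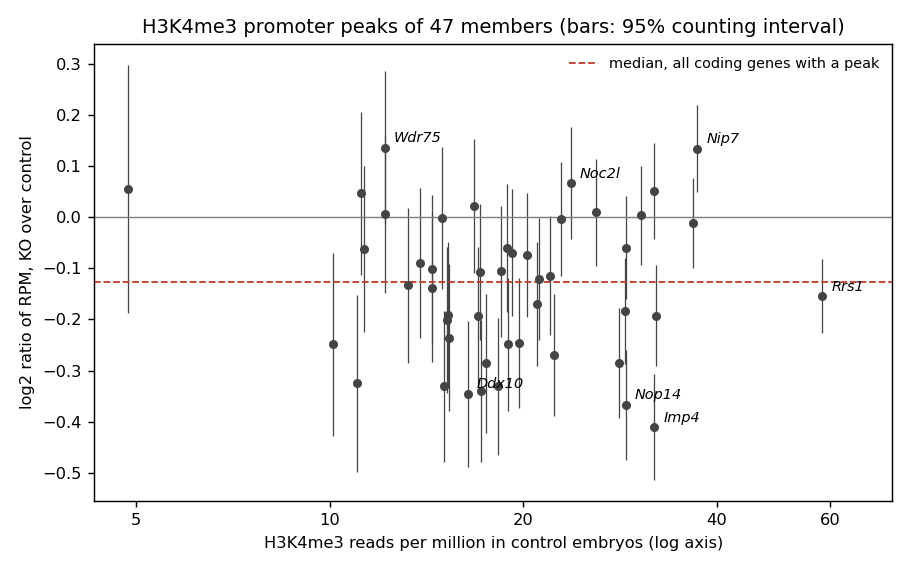
Log2 ratio of H3K4me3 RPM, KO over control (vertical axis, bars for the 95% counting interval), against RPM in control embryos (horizontal axis, log) for 47 members, each by its promoter peak with most reads. Most points lie between -0.41 and 0.14 around the dashed line, the median of -0.13 over all coding genes with a peak, and Rrs1 has the highest level.

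H3K27me3 was found at 1 of the 48 promoters, that of Rrs1, against 17.8% of coding genes. Rrs1 helps bring the 5S particle into the large subunit. The peak at chr1:9545449-9546620 begins 41 bases after the start and lies within the gene, which runs from 9545408 to 9547455 on the plus strand. It held 34.9 RPM in KO and 27.1 RPM in control embryos (log2 ratio 0.37, interval 0.26 to 0.47), beside a median of 0.11 over coding genes with a peak. It was below 2-fold, as were all but 0.0562% of coding promoters with a peak. The same promoter had the most H3K4me3 of the members, 52.5 RPM in KO and 58.4 RPM in control embryos. Embryo RNA of Rrs1 measured 0.60 to 9.07 CPM in KO and 0.14 to 5.88 CPM in control libraries of 18h to 22h. At 24h it measured 0.0707 and 0 CPM in KO and 0.0619 and 18.2 CPM in control libraries, so the 24h controls differed widely from each other.

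AcNPM1 peaks lay at 2 of the 48 promoters, against 15.8% of coding genes. At Rrs1 the peak held 32.3 RPM in KO and 30.4 RPM in control embryos (log2 ratio 0.09, interval -0.02 to 0.20), beside a coding median of 0.21. Scaled so that the median peak did not change, the Rrs1 ratio was -0.06. At Heatr1, a t-UTP protein also needed for transcription of ribosomal RNA genes in human cells, the peak at chr13:12394811-12395222 held 84 reads in KO and 53 in control embryos, or 1.39 RPM in KO and 1.65 RPM in control embryos (log2 ratio -0.25, interval -0.76 to 0.28). That peak spans the start in the RNA tables and overlaps the first part of the Heatr1 sequence printed above. KO embryos with and without the p300 inhibitor had a peak list of their own. Heatr1 had no promoter peak in that list. The list covers the same untreated KO embryos, so this absence does not measure the inhibitor. In that list 1 member had a peak, against 18.2% of coding genes. It was Rrs1, with 30.1 RPM in KO embryos given the inhibitor and 32.4 RPM in untreated KO embryos (log2 ratio -0.10, interval -0.21 to 0.00), where the coding median was -0.11. No member was past 2-fold in either AcNPM1 comparison, where 0.19% of coding promoters with a peak were past it for KO against control and 0.247% for the inhibitor.

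The last comparison asked what LoNA KD altered in 2C-like mESC. Of the 48 members 18 rose and 17 fell, where the test called 74.2% of all 16406 genes, 38.9% as higher and 35.3% as lower. The members' share of 72.9% was therefore close to that of all genes. Their median log2 change, KD over control, was 0.003, with a median size of 0.22 against 0.59 over all genes. DESeq2 called 14 as higher and 13 as lower, beside 61.9% of all genes. The members' summed level was 7119 ± 91.1 CPM in KD and 7178 ± 15.4 CPM in control mESC (SD, n = 2 each). The 2 libraries of a group correlated at 0.998. The biological coefficient of variation was 3.39%, against 55.5% to 77.5% at 18h to 22h, so the p-values measure a very small spread. Columns of the latest embryo time were summed where they correlated above 0.99, a rule not applied to mESC. Under that rule each mESC group would hold a lone library, with no spread to test against. The labels do not say whether the mESC libraries came from separate collections, so the calls may rest on repeat measurements.

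**Figure D5:**
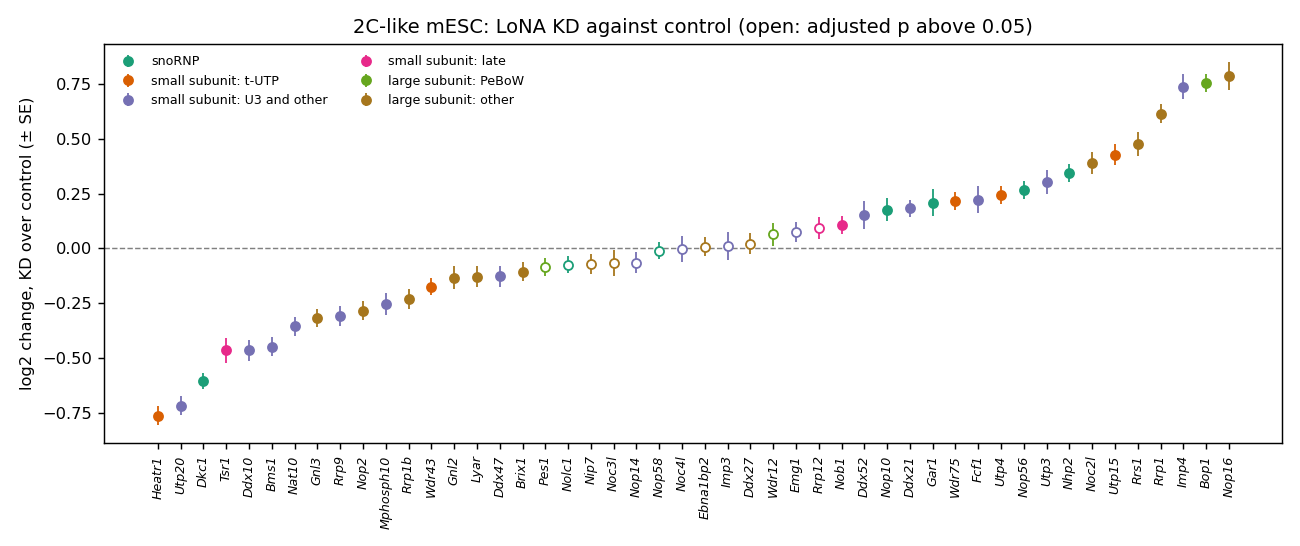
Log2 change, KD over control, in 2C-like mESC (vertical axis, bars ± SE) for the 48 members in order of their change (horizontal axis), coloured by role, with open points where adjusted p was above 0.05. The changes run from -0.76 for Heatr1 to 0.79 for Nop16, and every role but PeBoW has called members on both sides of 0.

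The largest rises were in Nop16, Bop1, Imp4, Rrp1, Rrs1 and Utp15. Nop16, a large-subunit factor, measured 78.2 and 82.2 CPM in KD against 43.8 and 49.1 CPM in control mESC, without overlap (log2 change 0.79 ± 0.06, adjusted p = 2.5e-10 in edgeR). Bop1, the PeBoW protein that holds Pes1 and Wdr12 together, measured 196 and 201 CPM in KD and 118 and 118 CPM in control mESC (log2 change 0.76 ± 0.04, adjusted p = 6.1e-13 in edgeR). Its partners Pes1 and Wdr12 were not called, at log2 changes of -0.08 and 0.06. Imp4 averaged 76.6 ± 0.31 CPM in KD and 45.9 ± 0.52 CPM in control mESC. Rrp1, a large-subunit factor related to Rrp1b, averaged 271.6 ± 17.7 CPM in KD and 177.3 ± 0.08 CPM in control mESC. Rrs1 averaged 107.8 ± 6.88 CPM in KD and 77.4 ± 4.49 CPM in control mESC, and Utp15 119.2 ± 0.72 CPM in KD and 88.6 ± 1.85 CPM in control mESC (SD, n = 2 each). All 4 had KD libraries wholly above control, as did 44.1% of all genes.

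The largest falls were in Heatr1, Utp20, Dkc1, Tsr1, Ddx10 and Bms1. Heatr1 measured 158 and 153 CPM in KD against 268 and 260 CPM in control mESC, without overlap (log2 change -0.76 ± 0.04, adjusted p = 2.9e-13 in edgeR). Utp20 measured 156 and 147 CPM in KD and 249 and 250 CPM in control mESC (log2 change -0.72 ± 0.04, adjusted p = 1.2e-12 in edgeR). Dkc1 averaged 222.4 ± 2.95 CPM in KD and 338.4 ± 2.197 CPM in control mESC. Tsr1, which checks the late small subunit, averaged 57.6 ± 0.40 CPM in KD and 79.6 ± 1.44 CPM in control mESC. Ddx10 averaged 79.1 ± 0.02 CPM in KD and 109.2 ± 1.49 CPM in control mESC, and Bms1 184.7 ± 2.74 CPM in KD and 252.1 ± 11.9 CPM in control mESC. All of these were lower in both KD libraries than in either control library, as were 42.4% of all genes.

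By role, the snoRNP proteins gave 4 higher and 1 lower of 7, the t-UTP proteins 3 higher and 2 lower of 5, and the U3 and Mpp10 group 5 higher and 7 lower of 16. The late small-subunit factors gave 1 each way of 3, PeBoW 1 higher of 3, and the other large-subunit factors 4 higher and 6 lower of 14. Of 66 tested genes on the list of other pathway members, 33 rose and 19 fell, which is 78.8% against 74.2% of all genes. Their median log2 change was 0.14, beside 0.008 over all genes. Markers of other cells moved with KD. Genes of chromaffin cells and sympathetic neurons summed to 1850 to 1990 CPM in KD and 39.9 to 40.5 CPM in control mESC, with 7 and 2 of 7 at 1 CPM or more, and that list was chosen with the result known. Pluripotency genes summed to 1990 to 2027 CPM in KD and 4039 to 4051 CPM in control mESC, with all 8 detected in both, and fibroblast genes to 198.6 to 200.7 CPM in KD and 473.0 to 488.5 CPM in control mESC. Their part in the members' changes was not tested.

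Set side by side, control mESC and control embryos differed in level for most members. Control mESC were above every control embryo library of 18h to 22h for 35 of 48 members, against 39.5% of 16743 genes, and below every one for 3, against 22.5%. The 3 were Brix1, Imp4 and Mphosph10. Brix1 measured 138 and 138 CPM in control mESC and between 483 and 1547 CPM in control embryos of 18h to 22h. Bop1, in the other direction, measured 118 and 118 CPM in control mESC and between 1.05 and 5.15 CPM in those embryos. The tables were normalised separately, so these levels are a description and no test was run.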

How the data were processed

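RNA of embryos and mESC was deposited as 5 tables of whole-number read counts per gene. Per the submitters' processing notes the reads were handled with HISAT2 2.1.0, Bowtie2 2.2.3 and HTSeq 0.6.0 on mm10; which library kit or strand setting was counted is not given in the sources used here. The labels list 4 samples for each group of 18h, 20h and 22h and 3 for each mESC group, while the tables hold 3 and 2 columns; the other samples were not analysed here, and columns were matched to groups by name. Library numbers follow the columns of a table. The chromatin tables hold, per the file headers, reads per peak as counts and as RPM for each condition, and per the labels 3 samples stand behind each AcNPM1 condition; how they were pooled is not given. Per the submitters' processing notes Bowtie2 2.1.0 and MACS2 2.1.1 were used. The H3K27me3 and H3K4me3 columns carry initials only and were matched by the direction of their deposited log2 ratio. The authors' deposited fold changes of RNA were not used as results, and the deposited mean normalised signal per gene was used only to check the counts. The chromatin log2 ratios given here are the deposited ones, or those shifted by their median over all peaks where median scaling is named. Their intervals were computed from the reads.

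Counts were tested with edgeR 4.0.16 (TMM, filterByExpr, quasi-likelihood test), in each table by itself and, for time, on the joined 18h, 20h and 22h tables. Adjusted p is Benjamini-Hochberg over all genes tested, with a threshold of 0.05. CPM of 18h to 22h share the scale of the joint fit, while 24h and mESC have their own. Alternatives were DESeq2 1.42.0, its size factors, no filter, a block by column number, and leaving out each library; the scripts were tested on simulated data. A promoter peak overlaps 2 kb either side of the start in the RNA tables; alternatives were 1 kb, 5 kb, a fold of 1.5, at least 20 reads and median scaling.

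The members, the roles, the pathway list and the markers were chosen with earlier results of these data known. All members are counted. Named with values were members past the threshold at any embryo time, at each embryo time the 3 tested members with the smallest p, members without overlap the same way at 2 or more of 18h, 20h and 22h, the 6 largest rises and falls past it in controls from 18h to 22h and in mESC, members with H3K27me3 or AcNPM1 peaks, the 3 highest and 3 lowest H3K4me3 ratios, and in each role the member with the highest mean CPM over the control libraries of 18h to 22h. Gm17382, the members called at other steps or in KO over time, the members of the other pathway list and the neighbours were named after their values were seen. In 24h and mESC, 4 genes each have deposited means that the counts do not give. No member is among them, but Gm17382 is among those of mESC. Its mESC counts are not given here.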

Additional observations from a re-analysis of the deposited data

Results flagged for a closer look

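For 4 members KO lay wholly on one side of control at one embryo time and wholly on the other side at another. How many of all genes did so was not counted, so the 4 cannot be set against a share. The difference between times was not tested for these pairs, and at 24h each group had 2 libraries. Nop58 had a log2 change of 0.59 at 22h, KO over control, and a mean of 0.0707 CPM in KO against 12.0 CPM in control libraries at 24h. Utp20 had log2 changes of 0.54 at 20h, between 0.24 and 0.77 without 1 library, and 0.69 at 22h, between 0.45 and 0.84, and 0 CPM in both KO libraries against 4.004 CPM in controls at 24h. Wdr12 had a log2 change of -1.28 at 20h, and at 24h, where it did not pass the filter on low counts, it averaged 28.9 CPM in KO with counts of 8 and 930, against counts of 7 and 0 in control libraries. Nip7 had log2 changes of -1.12 at 20h, between -1.35 and -0.57 without 1 library, and 0.34 at 22h, and at 24h it averaged 90.7 CPM in KO and 17.3 CPM in control libraries. At 24h groups did not overlap for 33.3% of all genes tested.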

How the results depend on the processing

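Of the KO comparisons at 18h, 20h and 22h, the count of 0 called members held under every alternative run. At 24h it held except with columns as separate libraries, which gave 2 members lower. The median log2 change at 24h was -1.47 with no filter and between -4.04 and 1.89 without 1 library. In mESC that median was 0.032 with no filter and between -0.020 and 0.032 without 1 library. DESeq2 called 3 members higher and 2 lower from 18h to 20h in controls, 8 and 4 from 20h to 22h, and 1 lower from 18h to 22h in controls and 1 in KO; its size factors in edgeR also gave 1 lower in KO. Without 1 library, controls gave 0 to 1 higher from 18h to 20h, 0 to 7 higher and 0 to 2 lower from 20h to 22h, and 0 to 4 higher from 18h to 22h; KO gave 2 to 6 higher and 0 to 1 lower. Utp20 at 18h moved between -0.30 and 0.15 without 1 library. At 24h and in mESC these fits leave a lone library, assumed to vary like the other group. The causes were not tested. Same-numbered columns showed no clear pairing: correlations of their deviations from group means ran from -0.127 to 0.114. Deviations within a group sum to 0, which limits what these correlations can show. With a replicate block 0 members were called at 18h, 20h and 22h and 19 higher and 19 lower in mESC. The all-gene share under this block was not counted, so the mESC counts cannot be set against it. The counts of members with a promoter peak and past the fold did not change under the chromatin alternatives run, but median scaling left 23 members below 0 for H3K4me3 in place of 37. At 24h the libraries detected 7877 to 10167 genes at totals of 13066794 to 16922914 counts, and 6 members exceeded 10 counts in every library.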
